A study of Mus musculus with 9 samples.

Results

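The transcripts of 7 ETS transcription factors, Etv1, Etv4, Etv5, Etv6, Ets1, Ets2 and Ehf, were compared between mouse mammary tumours of 3 cell lines. They were chosen by name, with earlier results of these data known. Each array feature annotated with exactly 1 gene symbol that is one of these names was taken. Of several features of 1 gene the brightest on average was used. All 7 genes were measured, out of 19938 genes in all. ETS factors share a DNA-binding domain that reads sites built around the letters GGAA, and differ in the partners and kinases that act on them. Etv1 (ER81), Etv4 (PEA3) and Etv5 (ERM) form the PEA3 subfamily, whose transcription is raised by receptor tyrosine kinase, RAS and ERK signalling, in part by relief from the repressor capicua, and whose members are known in mammary gland branching and in ErbB2-driven tumours. Etv6 (TEL) is a repressor with a pointed domain, Ets1 and Ets2 are activators that ERK phosphorylates, and Ehf belongs to the epithelium-specific branch of the family.

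The samples were snap-frozen tumours, 3 from each of the transplantable lines NDL, Met1 and SSM2. Cells grown in vitro had been injected bilaterally into mammary fat pads that were not cleared, in female FVB/NJ mice of 6 to 8 weeks (the strain label reads FVB/N), and tumours were taken at a largest width of 5 to 10 mm. As background, the transgene of NDL is an activated ErbB2 (neu), Met1 derives from a tumour of the polyoma middle T transgene, both driven by a mammary tumour virus promoter, and SSM2 is a hormone receptor-positive mammary tumour line. No sample carried a treatment, and each model is 1 cell line. Total RNA was hybridised to Affymetrix Mouse Gene 1.0 ST arrays, 1 array per sample. The labels do not say whether samples of a line came from separate mice or tumours, so each p-value measures only the spread between these samples, which may be technical. All values below are log2 RMA signals (RMA corrects background, equalises the arrays' distributions and summarises the probes of a feature), and a difference of 1 is a 2-fold difference. Precision is limited by there being 3 arrays per line. In bulk tumour RNA, fewer cells of a type and less RNA per cell cannot be told apart.

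RefSeq windows upstream of a transcription start (GRCm38.p6) were on hand for 4 of the 7 genes, Etv1, Etv5, Etv6 and Ets2, with 6 starts in all. 3 of them are shown, from the PEA3 genes that were lowest in SSM2 and from Ets2, which was highest there. Each is the 250 bases before a start, with the letters TGAATG or their reverse complement in capitals. TGAATG is the common part of the octamers TGAATGAA and TGAATGGA known to be bound by capicua. The Etv1 window is chr12:38779832-38780081 (plus strand), the Etv5 window, at the second of its 2 starts, is chr16:22438369-22438618 (minus strand), and the Ets2 window is chr16:95702157-95702406 (plus strand).
Etv1: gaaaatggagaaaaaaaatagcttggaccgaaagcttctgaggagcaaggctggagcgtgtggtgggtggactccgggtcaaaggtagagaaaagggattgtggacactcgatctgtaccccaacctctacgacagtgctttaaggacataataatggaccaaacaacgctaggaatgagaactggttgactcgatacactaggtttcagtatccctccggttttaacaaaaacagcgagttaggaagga
Etv5: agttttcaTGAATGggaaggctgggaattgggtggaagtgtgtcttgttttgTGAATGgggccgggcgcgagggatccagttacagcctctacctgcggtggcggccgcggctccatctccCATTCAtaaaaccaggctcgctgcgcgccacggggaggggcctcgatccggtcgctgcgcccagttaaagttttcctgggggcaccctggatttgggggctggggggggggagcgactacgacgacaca
Ets2: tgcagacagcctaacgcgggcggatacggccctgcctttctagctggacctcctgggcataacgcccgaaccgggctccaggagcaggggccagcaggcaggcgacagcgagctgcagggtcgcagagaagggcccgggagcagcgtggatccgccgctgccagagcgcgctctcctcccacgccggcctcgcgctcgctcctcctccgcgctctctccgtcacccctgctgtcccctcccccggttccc

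The Etv5 window held 3 matches to TGAATG on either strand, and the 5 other windows of these genes held 0. Of 32851 windows of this length, 10.88% held the 6 letters and 43 (0.131%) held 3 or more. The 6-letter core was searched after the sequences had been seen. Neither full octamer was found in the 6 windows (1.08% of all windows held TGAATGAA and 1.01% TGAATGGA, either strand). The ETS core GGAA, which 93.45% of all windows held on either strand, occurred 2 times in the Etv1 window, 4 times in the Etv5 window and 1 time in the Ets2 window. At the other Etv5 start there was no GGAA, but there were 3 GC boxes (GGGCGG, in 32.74% of windows) and 3 CCAAT boxes (CCAAT, in 33.85%). A match is a string of letters, and binding was not measured.

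Across the 9 arrays the upper quartile of gene signal ran from 7.84 to 8.09 and was lowest in NDL replicates 1 and 2. The median of the gene means was 6.45 and their 25th percentile 4.91, used here as a mark of low signal. The 14 epithelial markers, a check of the tumour label, had list means of 9.67 to 9.81 in the NDL arrays and 10.44 to 10.67 in SSM2, but 5.93 to 7.36 in Met1, where all 14 were below SSM2. None of them had a line mean under the 25th percentile. Between NDL and SSM2, 0 of the 14 were higher in NDL, 2 were lower and 12 were not called by the test given below. Their median log2 difference was -0.24. Krt19 stood at 4.98, 7.59 and 6.21 in NDL and at 13.48, 13.32 and 13.40 in SSM2. Cldn4 stood at 9.19, 8.56 and 8.95 in NDL and at 11.84, 11.08 and 11.52 in SSM2. Of the 9 macrophage markers 7 were lower in NDL than in Met1, and 4 were higher in Met1 than in SSM2. Of 8 neutrophil markers 4 had a mean under the 25th percentile in NDL, 4 in Met1 and 2 in SSM2, and their list mean ran from 4.64 to 5.22 over the NDL and Met1 arrays and was 6.70, 5.92 and 4.79 in SSM2.

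Between NDL and SSM2, 6 of the 7 genes differed, 4 of them higher in NDL (Etv1, Etv4, Etv5 and Etv6) and 2 lower (Ets1 and Ets2). A gene is called where limma's moderated test gives a Benjamini-Hochberg adjusted p under 0.05 over all 19938 genes. Among all genes 9.35% were called higher and 7.52% lower in this comparison. Between NDL and Met1, 4 were higher in NDL (Etv4, Etv6, Ets2 and Ehf) and 1 lower (Ets1), against 8.88% and 10.2% of all genes. Between Met1 and SSM2, Etv1 and Etv5 were higher in Met1 and Ets2 was lower, against 7.10% and 4.71% of all genes, and the other 4 did not pass. The median log2 difference of the 7 genes was 0.67 for NDL minus Met1, 1.08 for NDL minus SSM2 and 0.13 for Met1 minus SSM2, where the medians of all genes were 0.06, 0.09 and 0.04. Without 1 array the 4 higher in NDL than in Met1 became 2 (without NDL replicate 1 or 2 or Met1 replicate 1) or 1 (without Met1 replicate 3), and the lower counts changed with the calls of Ets1 and Ets2. Without NDL replicates 1 and 2, and likewise when tested against a minimum of 1.5-fold, 0 of the 5 calls between NDL and Met1 were left, and of those between NDL and SSM2 there were 2, Etv1 and Etv5. Of 14 differences called among the 21 tested, 7 stayed called whichever of the 9 arrays was left out: Etv1 and Etv5 against SSM2 in both comparisons, Etv4 and Etv6 between NDL and SSM2, and Ets2 between Met1 and SSM2. Ranking the lines by level, 7 of 14 neighbouring pairs of lines passed the test, and Ets2 was the gene for which both did. How often the differences of other genes stay called, or their neighbouring pairs pass, was not counted.

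**Figure D1:**
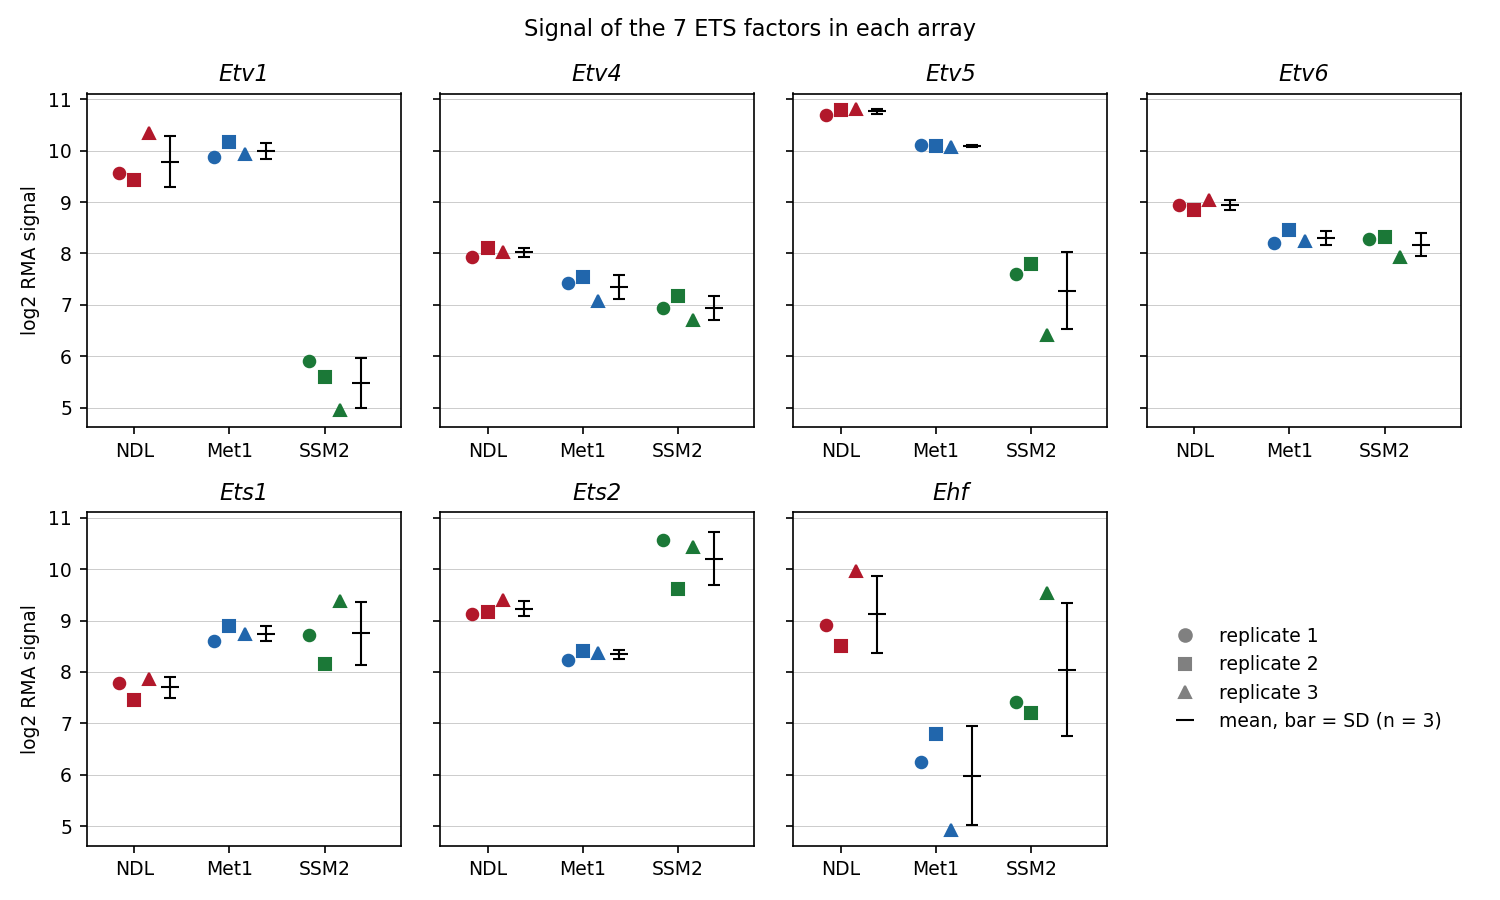
Log2 RMA signal (y axis) of each of the 7 ETS factors in the 9 arrays, grouped by line (x axis), with symbols for replicate numbers and bars for the mean ± SD (n = 3). Etv1 and Etv5 are lower in every SSM2 array (at most 5.91 and 7.80) than in any other array, and Ehf has the widest spread within lines.

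**Figure D2:**
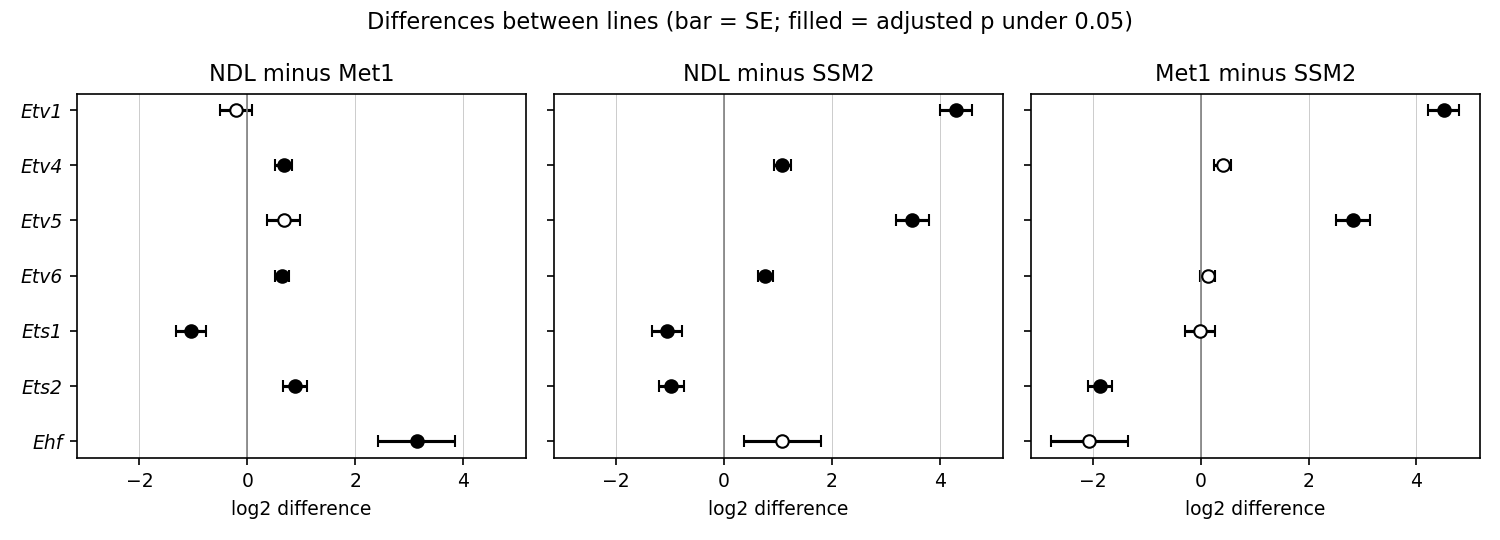
Log2 difference between lines (x axes) for the 7 ETS factors (y axis), with bars for the standard error and filled points for an adjusted p under 0.05. Etv1 and Etv5 are farthest to the right against SSM2, at 4.30 and 3.49 for NDL, and Ehf is farthest to the right for NDL minus Met1, at 3.14.

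Etv1, the PEA3 factor with the largest difference, was 19.7-fold higher in NDL and 22.7-fold higher in Met1 than in SSM2. It stood at 9.57, 9.44 and 10.35 in NDL replicates 1 to 3, at 9.87, 10.16 and 9.93 in Met1 and at 5.91, 5.60 and 4.96 in SSM2 (feature 10406934). All SSM2 arrays lay more than 3 units below the others, and the NDL and Met1 arrays overlapped. The log2 difference was 4.30 (SE 0.29, adjusted p = 5.52e-05, limma) between NDL and SSM2 and 4.50 (SE 0.29, adjusted p = 7.99e-05) between Met1 and SSM2. In size these were the 39th and the 21st of 19938 genes. NDL and Met1 differed by -0.20 (SE 0.29, adjusted p = 0.667), a value that turned to 0.36 without NDL replicates 1 and 2 and did not pass there either (adjusted p = 0.645). The SSM2 mean, 5.49 ± 0.49 (SD, n = 3), was above the 25th percentile of gene means and below their median.

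Etv5 gave the same division of the lines, 11.3-fold higher in NDL and 7.06-fold higher in Met1 than in SSM2. Its signal was 10.71, 10.79 and 10.80 in NDL, 10.11, 10.10 and 10.07 in Met1 and 7.61, 7.80 and 6.41 in SSM2 (feature 10363901). The SD was 0.05 in NDL and 0.02 in Met1 but 0.75 in SSM2, where replicate 3 was more than 1 unit below the other SSM2 arrays. The log2 differences from SSM2 were 3.49 for NDL (SE 0.31, adjusted p = 0.000203) and 2.82 for Met1 (SE 0.31, adjusted p = 0.000882), and without SSM2 replicate 3 they were 3.06 and 2.39. NDL was above Met1 in all arrays, by 0.67, which did not pass with the spread shared over the 3 lines (SE 0.31, adjusted p = 0.172). It passed when the arrays of NDL and Met1 were fitted alone (adjusted p = 0.00328) and without SSM2 replicate 3 (adjusted p = 0.00232).

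Etv4, the factor that gave the PEA3 group its name, had smaller differences, with means in the order NDL, Met1, SSM2. It stood at 7.94, 8.11 and 8.02 in NDL, at 7.42, 7.54 and 7.08 in Met1 and at 6.93, 7.18 and 6.71 in SSM2 (feature 10391490). No NDL array overlapped either other line, while Met1 replicate 3 lay below SSM2 replicate 2. The log2 difference of NDL from SSM2 was 1.08 (SE 0.16, 2.12-fold, adjusted p = 0.00277) and from Met1 0.68 (SE 0.16, 1.60-fold, adjusted p = 0.0188). The difference from Met1 no longer passed without NDL replicate 2 (adjusted p = 0.0595) or without Met1 replicate 3 (adjusted p = 0.0636). Met1 minus SSM2 was 0.41 (adjusted p = 0.155). Etv4 is the PEA3 gene with 1 feature and is annotated on mouse chromosome 11.

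The features that stood for Etv1 and Etv5 lay, in the order of feature IDs, among genes of other chromosomes. All 10 nearest annotated features of 10406934 belong to chromosome 13, whereas RefSeq places Etv1 on chromosome 12, and all 10 of 10363901 belong to chromosome 10, whereas Etv5 is on chromosome 16. Each gene has a second feature whose neighbours are on its own chromosome, 10395457 for Etv1 and 10438626 for Etv5. The labels and annotation do not give the probes' sequences, so which transcripts each feature hybridised was not analysed here. The second Etv1 feature stood at means of 9.53 in NDL, 9.73 in Met1 and 5.39 in SSM2, and the second Etv5 feature at 10.31, 9.73 and 6.69. Over the 9 arrays both features of a gene correlated at r = 0.995 for Etv1 and 0.999 for Etv5, values in which the distance of SSM2 from the other lines counts most. With the second features in their place, the same differences were called (Etv1 4.14 and 4.34, Etv5 3.62 and 3.03 for NDL and Met1 minus SSM2).

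**Figure D3:**
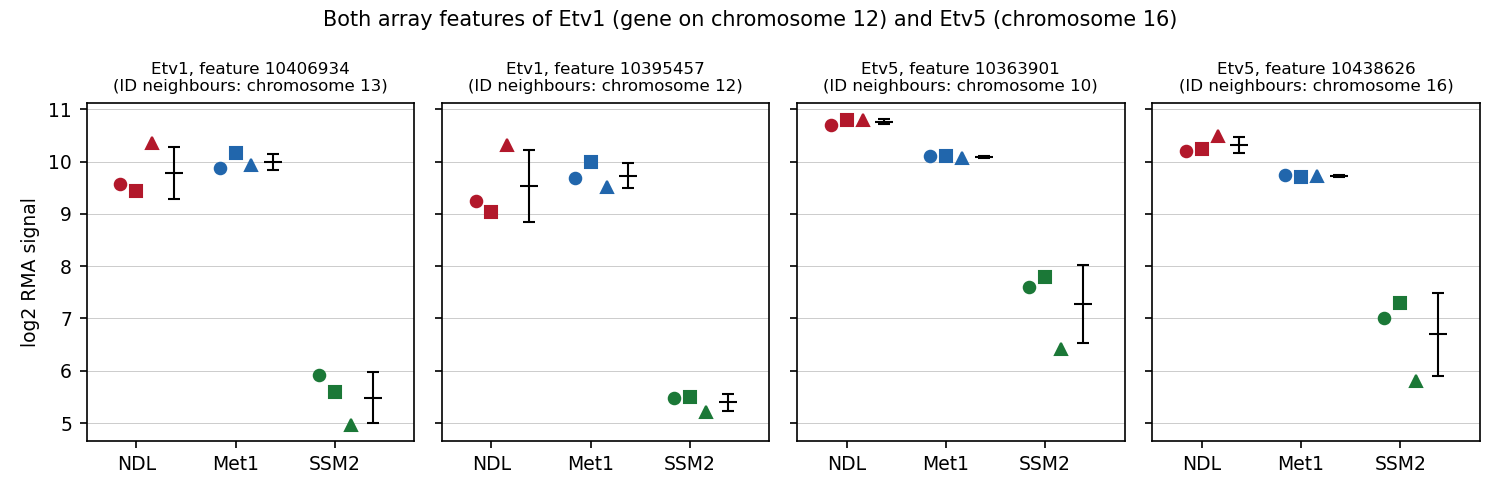
Log2 RMA signal (y axis) of both features of Etv1 and of Etv5 in the 9 arrays by line (x axis), with symbols for replicates and bars for the mean ± SD (n = 3). Each second feature repeats the low SSM2 arrays, with SSM2 means of 5.39 for Etv1 and 6.69 for Etv5.

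Etv6 was higher in NDL than in both other lines and did not separate Met1 from SSM2. NDL stood at 8.94, 8.85 and 9.03, Met1 at 8.20, 8.45 and 8.25, and SSM2 at 8.29, 8.31 and 7.92 (feature 10542275). The NDL arrays were above all others, and Met1 and SSM2 overlapped. NDL exceeded SSM2 by 1.70-fold (log2 difference 0.77, SE 0.13, adjusted p = 0.00623) and Met1 by 1.56-fold (0.64, SE 0.13, adjusted p = 0.0117), the latter with an adjusted p = 0.0511 without Met1 replicate 1. Met1 minus SSM2 was 0.13 (SE 0.13, adjusted p = 0.688).

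Ets1, known in lymphoid and endothelial cells and in invasive carcinoma, was lower in NDL than in both other lines. It stood at 7.79, 7.46 and 7.85 in NDL, at 8.61, 8.90 and 8.73 in Met1 and at 8.72, 8.15 and 9.38 in SSM2 (feature 10584142). NDL overlapped neither line, and the SSM2 arrays spread over the whole Met1 range. NDL lay below Met1 by a log2 difference of -1.04 (SE 0.28, 2.06-fold, adjusted p = 0.0318) and below SSM2 by -1.05 (SE 0.28, 2.07-fold, adjusted p = 0.0355). Both calls depended on single arrays: 5 of 9 fits with 1 array left out ended the first (any NDL array but replicate 3, or any Met1 array, adjusted p from 0.0703 to 0.107) and 6 of 9 the second (the same arrays or SSM2 replicate 1, adjusted p from 0.0579 to 0.114). Met1 and SSM2 had means of 8.74 and 8.75 (difference -0.01, SE 0.28, adjusted p = 0.996). The sign of this difference changed with the setting, as with equal array medians (0.01).

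T cells and endothelial cells are known to express Ets1, and their markers were set beside it. Of 9 measured T cell markers 2 were lower and 0 higher in NDL than in Met1, with a median log2 difference of -0.06. Between NDL and SSM2 0 of the 9 were called, and 2 were higher in Met1 than in SSM2. Cd3d had a mean under the 25th percentile of gene means in every line. The T cell list mean ran from 5.37 to 5.94 over the NDL arrays, from 5.87 to 6.14 over Met1 and from 5.10 to 5.78 over SSM2. Of 12 endothelial markers 1 was lower in NDL than in Met1 and 3 were lower than in SSM2. Their list means lay between 6.76 and 6.91 (NDL), 6.91 and 7.15 (Met1) and 7.02 and 7.64 (SSM2). The median log2 difference of the 12 was -0.01 for NDL minus Met1 and -0.39 for NDL minus SSM2. Flt1, which enters the list means, stood at 7.39, 7.41 and 7.44 in NDL and at 9.38, 9.63 and 8.92 in Met1. In SSM2 replicate 3, which had the highest Ets1 signal of all arrays, the T cell (5.10) and endothelial (7.02) means were the lowest of the SSM2 arrays. The part of these cells in the NDL difference was not tested.

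Ets2, an activator close in sequence to Ets1, was highest in SSM2 and lowest in Met1. Its signal was 9.12, 9.17 and 9.40 in NDL, 8.24, 8.42 and 8.37 in Met1 and 10.57, 9.62 and 10.43 in SSM2 (feature 10437160). No line overlapped another. Met1 was 3.64-fold below SSM2 (log2 difference -1.86, SE 0.23, adjusted p = 0.00144). NDL lay between, 1.85-fold above Met1 (0.89, SE 0.23, adjusted p = 0.028) and 1.97-fold below SSM2 (-0.98, SE 0.23, adjusted p = 0.0225). When arrays were left out one at a time, the call against Met1 was lost in 5 of 9 fits (NDL replicates 1 or 2, or any Met1 array, adjusted p from 0.0645 to 0.0928), and the call against SSM2 in 4 of 9 (NDL replicates 1 or 2, SSM2 replicates 1 or 3, adjusted p from 0.057 to 0.0841). The latter also ended with the NDL and SSM2 arrays fitted alone (adjusted p = 0.0768) and with array weights (adjusted p = 0.0706). Ets2 was low in Met1, where Etv1 and Etv5 were high, and high in SSM2, where they were low. Its order of the lines was also that of the epithelial list means, with r = 0.873 over the 9 arrays but 0.0794 for deviations from the line means. The myoepithelial, fibroblast and adipocyte list means had the same order of lines. Ets2 correlated with them at r = 0.853, 0.790 and 0.46 over the 9 arrays, and at -0.156, 0.255 and -0.0228 for deviations. The part of tumour cell content in the Ets2 differences was not tested.

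Ehf, the epithelial member of the group, was 8.83-fold higher in NDL than in Met1. Its signal was 8.91, 8.50 and 9.96 in NDL, 6.24, 6.79 and 4.91 in Met1 and 7.41, 7.19 and 9.54 in SSM2 (feature 10485445). Met1 overlapped neither line, and SSM2 replicate 3 reached the NDL range. The Met1 mean, 5.98, was below the median of gene means (6.45), and Met1 replicate 3 was close to their 25th percentile (4.91). Within-line SDs were 0.75 in NDL, 0.97 in Met1 and 1.30 in SSM2, the widest among the 7 genes. The log2 difference of NDL from Met1 was 3.14 (SE 0.71, adjusted p = 0.0165), with an adjusted p = 0.0522 without NDL replicate 1 and 0.061 without Met1 replicate 3. Met1 minus SSM2 was -2.06 (SE 0.71, adjusted p = 0.111) and NDL minus SSM2 1.08 (SE 0.71, adjusted p = 0.305), so neither passed.

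Array by array, Ehf was lowest in Met1 replicate 3 (4.91), the array with the lowest epithelial list mean (5.93) and the highest macrophage list mean (10.22). It was high in NDL replicate 3 (9.96) and SSM2 replicate 3 (9.54), which had the lowest macrophage list means, 8.64 and 8.37. The epithelial list mean of SSM2 replicate 3 was 10.67, against 10.47 and 10.44 in replicates 1 and 2, where Ehf stood at 7.41 and 7.19. Over the 9 arrays Ehf correlated with the macrophage mean at r = -0.916 and with the epithelial mean at 0.782, and for deviations from the line means the values were -0.81 and 0.658. Other lists gave similar values for these deviations: -0.848 for T cell markers (-0.751 over the 9 arrays), -0.798 for adipocyte markers (-0.159) and -0.748 for neutrophil markers (-0.37). These describe 9 arrays of 3 lines, in which every transcript shares the array's RNA. The part of tumour cell content in the Ehf difference was not tested.

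**Figure D4:**
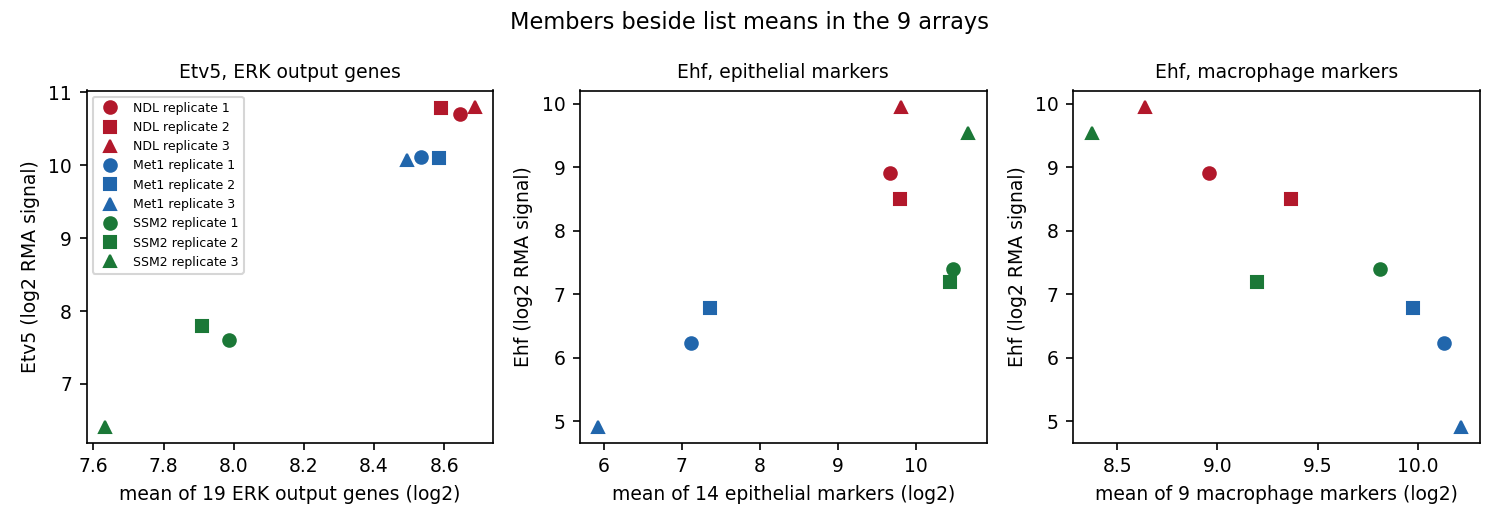
Log2 RMA signal of Etv5 or Ehf (y axes) against the mean log2 signal of a gene list (x axes) in the 9 arrays, with colours for lines and symbols for replicates. Etv5 and the ERK output list are both lowest in SSM2 replicate 3, and Ehf is lowest in Met1 replicate 3, where the macrophage mean is highest.

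The rest of the ETS family, 18 measured genes of 19, was compared in the same way, and between NDL and Met1 8 were lower and 2 higher in NDL. The 2 higher ones are epithelial factors as is Ehf: Elf5, which directs alveolar fate (4.05, adjusted p = 0.000201), and Elf3 (1.85, adjusted p = 0.00148). Lower were Elk3 (-1.30), Elf4 (-1.14), Fli1 (-1.13), Elf1 (-1.12), the myeloid factor Spi1 (-0.94), Elf2 (-0.86), Etv3 (-0.65) and Elk1 (-0.56). Of these the Elf1 (adjusted p = 0.0499) and Spi1 (adjusted p = 0.0477) values were at the edge of the threshold. The median of the 18 was -0.37, against 0.06 for all genes. Macrophage markers, among which Spi1 is known to act, were lower in NDL in 7 of 9, with list means of 8.64 to 9.37 in NDL and 9.98 to 10.22 in Met1. Their part in these differences was not tested.

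Against SSM2, 14 of the 18 did not pass for NDL and 14 did not for Met1, with medians of -0.13 for NDL and 0.00 for Met1. In NDL Elf5 was higher (4.64, adjusted p = 0.000112), and Elf1 (-1.23), Elf4 (-1.18) and Elk4 (-0.68) were lower. In Met1 Spi1 (1.16), Elk1 (0.62) and Etv3 (0.56) were higher and Elf3 (-2.21, adjusted p = 0.00101) was lower than in SSM2. Elf3 signal was 8.61, 7.79 and 7.53 on the SSM2 arrays, above 5.90, 5.83 and 5.57 on those of Met1. Its order, SSM2 and NDL above Met1, has the lowest line in common with Ehf and Ets2. Elf5 was high in NDL alone, at 9.98, 10.15 and 10.50, against 6.48, 6.74 and 5.26 in Met1 and 5.65, 5.82 and 5.25 in SSM2. The epithelial markers were lowest in Met1 (list means of 5.93 to 7.36), and their part in the Elf3 and Elf5 differences from Met1 was not tested. In SSM2, where the epithelial list means were 10.44 to 10.67, the Elf5 mean was 5.57, against 6.16 in Met1 (difference 0.59, adjusted p = 0.403, not called).

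These counts depended on single arrays. The 8 lower in NDL than in Met1 became 4 without NDL replicate 1, Met1 replicate 2 or Met1 replicate 3 and 5 without Met1 replicate 1. The 3 lower in NDL than in SSM2 became 1 without NDL replicate 1 or 2, Met1 replicate 1 or 2, or SSM2 replicate 1, and 5 without NDL replicate 3, where 2 were higher. The 3 higher in Met1 than in SSM2 became 1 without NDL replicate 1, Met1 replicate 1 or 2, or SSM2 replicate 2 or 3, and 5 without SSM2 replicate 1. Elf5 (both NDL comparisons) and Elf3 (against Met1) were the largest of the differences.

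**Figure D5:**
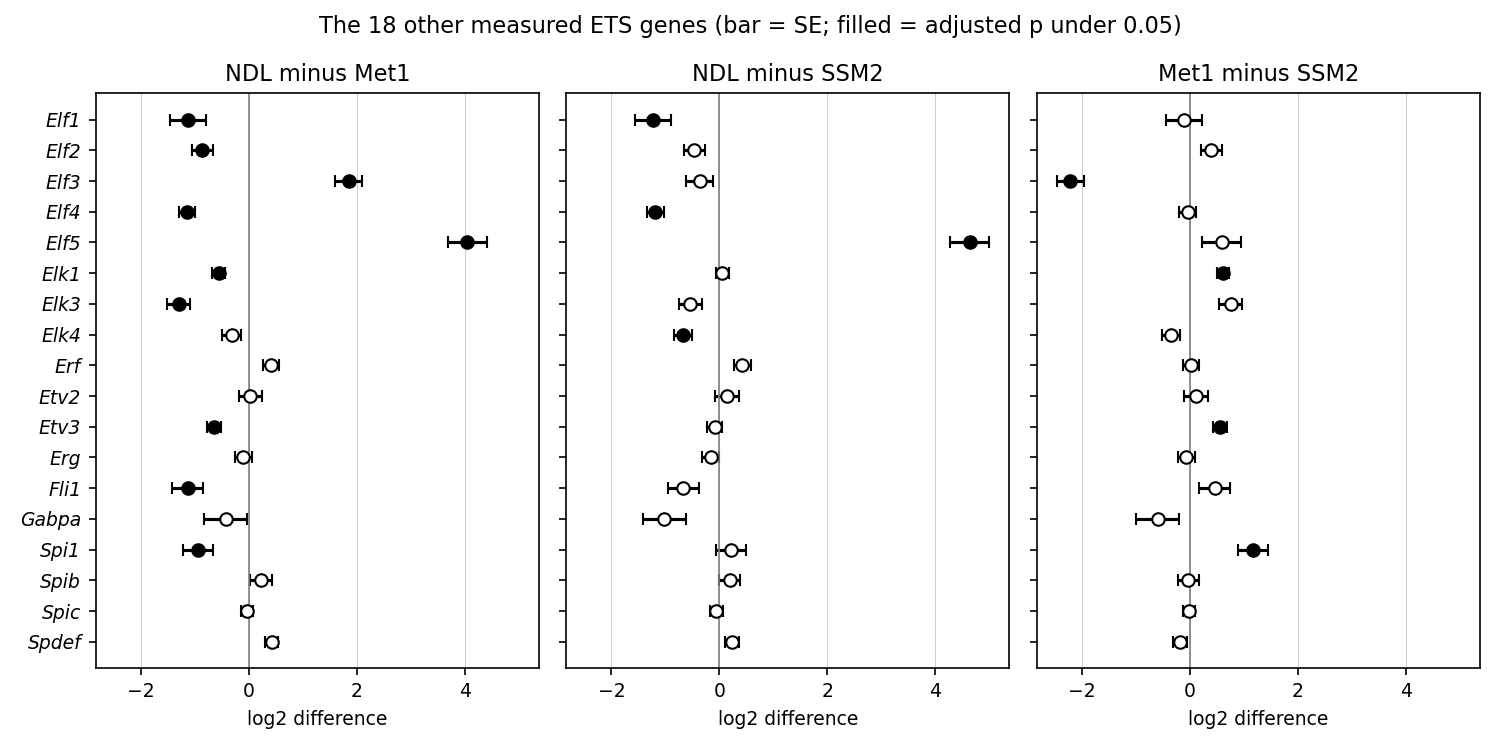
Log2 difference between lines (x axes) for the 18 other measured ETS genes (y axis), with bars for the standard error and filled points for an adjusted p under 0.05. Elf5 is highest in both NDL comparisons (4.05 and 4.64), and 8 genes are filled left of 0 in NDL minus Met1.

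Known outputs of ERK signalling were compared beside Etv1 and Etv5, from a list that leaves the ETS factors out. The list was chosen with earlier results of these data known. Of 19 measured genes 9 were higher and 0 lower in NDL than in SSM2, and 8 were higher and 2 lower in Met1 than in SSM2, with medians of 0.81 and 0.37. At an unadjusted p under 0.05 (limma), 11 of the 19 were higher and 2 lower in NDL than in SSM2. The share of all genes at that unadjusted threshold was not counted, and the shares given above are for adjusted p. Phlda1, a gene induced by growth factors, stood at 7.69, 7.54 and 6.32 in SSM2, with means of 10.45 in NDL and 9.89 in Met1 (log2 differences 3.26, adjusted p = 0.000304, and 2.70, adjusted p = 0.00112). Like Etv5 it was lowest in SSM2 replicate 3. The cyclin Ccnd1 (1.90 in NDL, 2.37 in Met1), the Sprouty gene Spry2 (1.76 and 3.18) and its relative Spry4 (2.53 and 1.41) were higher than in SSM2 in both lines, and Fosl1, an AP-1 subunit, was higher in Met1 (2.24). The 2 lower genes in Met1 were Dusp4 (-1.25) and Tfpi2 (-1.32). Between NDL and Met1 3 were higher and 4 lower in NDL, led by Fosl1 (-2.49), Dusp4 (2.23), Spry2 (-1.42) and Epha4 (1.35). Without NDL replicates 1 and 2 the 9 genes called higher in NDL than in SSM2 became 4. Single arrays mattered for the smaller counts: the 2 lower in Met1 became 1 without Met1 replicate 1 or 3, the 3 higher in NDL than in Met1 became 5 without SSM2 replicate 3, and 1 gene was called lower in NDL than in SSM2 without SSM2 replicate 1.

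The list mean of the 19 was 8.64, 8.59 and 8.69 in NDL, 8.53, 8.58 and 8.50 in Met1 and 7.99, 7.91 and 7.63 in SSM2. Over the 9 arrays it correlated with Etv5 at r = 0.992 and with Etv1 at 0.977, against 0.826 for Etv4, 0.728 for Etv6, -0.109 for Ehf, -0.569 for Ets1 and -0.758 for Ets2. For deviations from the line means r was 0.899 for Etv6, 0.892 for Etv5, 0.834 for Etv1, 0.576 for Etv4, -0.10 for Ets2, -0.441 for Ehf and -0.57 for Ets1. High values for these deviations were not particular to this list. With fibroblast markers r was 0.861 for Etv6 and 0.796 for Etv1 (-0.0337 and -0.657 over the 9 arrays). With neutrophil markers it was 0.812 for Etv5 (-0.448 over the 9 arrays). SSM2 replicate 3 differed from the other SSM2 arrays in other ways too: its macrophage mean was 8.37 (9.81 and 9.20 in the others) and its fibroblast mean 8.84 (10.33 and 9.53). The part of these cells in the low Etv5 and Phlda1 signal of that array was not tested.

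Receptors and parts of the RAS and ERK cascade, which lie upstream of PEA3 transcription, were called in both directions in each comparison. Of 17 measured genes (of 22 listed) 3 were higher and 3 lower in NDL than in SSM2, and 3 were higher and 4 lower in Met1 than in SSM2. Erbb2, whose activated form is the NDL transgene, was above SSM2 in NDL (2.50, adjusted p = 3.29e-05) but below it in Met1 (-1.32, adjusted p = 0.00114). Whether the Erbb2 feature reads the transgene, the mouse's own gene or both was not examined. Erbb3, the partner of Erbb2, was below SSM2 in Met1 (-4.05), as were the fibroblast growth factor receptors Fgfr2 (-3.40) and Fgfr3 (-1.88). Fgfr3 was also lower in NDL than in SSM2 (-2.44). All 14 epithelial markers were likewise below SSM2 in Met1, and their part in the Met1 differences was not tested. The adaptors Grb2 (0.97) and Shc1 (0.77) and the scaffold Ksr1 (0.82) were higher in Met1 than in SSM2, and Ksr1 (0.71) and the ERK kinase Map2k2 (0.78) were higher in NDL, while Braf (-0.89) and Nras (-0.81) were lower there. Between NDL and Met1 6 were higher and 4 lower in NDL, with Erbb3 (4.45), Erbb2 (3.83) and Fgfr2 (2.05) at the upper end and Nras (-1.06) at the lower.

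The next list held 9 genes of the capicua repressor and of the COP1 ubiquitin ligase, which marks PEA3 proteins for degradation. Of these 1 was higher and 0 lower in NDL than in Met1, and 3 were higher and 0 lower in NDL than in SSM2. In Met1 1 was higher and 1 lower than in SSM2. Their medians were 0.12, 0.06 and 0.02 in the same order, against 0.06, 0.09 and 0.04 for all genes. The shares of all genes called per comparison are given above. The capicua gene Cic was higher in NDL than in SSM2 (8.09 against 7.55, log2 difference 0.54, adjusted p = 0.0304), the same direction as the PEA3 genes. Cop1 itself did not pass in any comparison (adjusted p from 0.235 to 0.901), with an SD of 0.90 among the NDL arrays. Trib2, a Tribbles pseudokinase that binds COP1, was 10.5-fold higher in NDL and 15.7-fold higher in Met1 than in SSM2 (3.39, adjusted p = 2.35e-05, and 3.97, adjusted p = 2.24e-05), from 6.49, 6.45 and 5.99 in the SSM2 arrays. Its relative Trib1 was higher in NDL than in Met1 (0.85) and SSM2 (1.04), and the ligase scaffold Cul4a was lower in Met1 than in SSM2 (-1.14).

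Genes reported elsewhere as targets of PEA3 or other ETS factors were called in both directions against SSM2. Of 17 measured, 1 was higher and 6 were lower in NDL than in SSM2, 2 were higher and 2 lower in Met1 than in SSM2, and 0 were higher and 5 lower in NDL than in Met1. Their median log2 differences were -0.51, 0.02 and 0.07 in the same order, against 0.09, 0.04 and 0.06 for all genes. The mesenchymal factor Twist1 was higher in NDL (1.48) and Met1 (3.46) than in SSM2, and Vim, the intermediate filament vimentin, in Met1 (1.75). The protease Mmp14 was lower in NDL (-1.67) and Met1 (-1.74) than in SSM2, as was Myb (-2.75 and -3.53). The cyclooxygenase Ptgs2 (-5.20), the urokinase receptor Plaur (-2.10), Twist1 (-1.98), Vim (-1.84) and the urokinase gene Plau (-1.81) were lower in NDL than in Met1. Of the ETS factors called in that comparison, Ets1 was lower in NDL, and Etv4, Etv6, Ets2 and Ehf were higher in NDL. In NDL Ptgs2 (-3.68), Plaur (-1.89) and Plau (-1.51) were also lower than in SSM2. The SSM2 arrays stood far apart for Ptgs2, at 11.41, 8.99 and 8.07. Macrophage markers were lower in NDL than in Met1 in 7 of 9 and than in SSM2 in 1 of 9, with 1 of 9 higher, and their part in these differences was not tested. At an unadjusted p under 0.05 (limma), 1 of the 17, Cxcr4 (0.78), was higher in NDL than in Met1. Besides the 5 genes called lower, Mmp3 (-2.51) and Icam1 (-0.82) were lower in NDL at that threshold. The share of all genes at that threshold was not counted.

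The genes whose pattern over the 9 arrays was most like each ETS factor were found by Pearson's r among the 9969 genes with a mean at or above the median. Since the arrays fall into 3 lines, r describes mainly the line means, and a second value gives r for the deviations from them. For Etv1 they were Rtn1 (0.991, within lines 0.58), Trib2 (0.989, 0.697) and Igf2r (0.989, 0.848). For Etv5 they were Phlda1 (0.997, 0.953), Sema5a (0.992, 0.876) and the ferritin gene Fth1 (0.99, 0.984). For Etv4, Gpx4 (0.99, 0.964), Dgkz (0.986, 0.899) and Stard5 (0.984, 0.883) came first. Nearest to Etv6 were Foxo1 (0.985, 0.90), the receptor gene Kit (0.982, 0.847) and Fhdc1 (0.98, 0.849). Ets1 was followed most closely by Snx18 (0.987, 0.989), Milr1 (0.984, 0.949) and B130055M24Rik (0.971, 0.944), and Ets2 by Lgals12 (0.976, 0.983), Wnt5a (0.972, 0.704) and Cmip (0.969, 0.94). Ehf was matched by Rnf169 (0.971, 0.90), Chd3 (0.96, 0.915) and Smagp (0.957, 0.897). Among the 7 factors the closest pair was Etv1 and Etv5 (0.961, 0.638), followed by Etv4 and Etv6 (0.931, 0.619), and Ets1 ran against Etv6 (-0.869, -0.472) and Etv4 (-0.856, -0.646).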

How the data were processed

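Each of the 9 samples was 1 frozen tumour sample on 1 Affymetrix Mouse Gene 1.0 ST array. Per the submitters' processing notes the deposited values are log2 signals made by RMA with oligo 1.40.2, which sets the arrays to a common distribution, so a shift shared by most genes would be removed. Features were named through GEO's platform annotation: of 35556 features 21789 had 1 symbol, 1621 several and 12146 none, and only the first kind was used. Symbols were updated through gene IDs of RefSeq GRCm38.p6 (21698 matched, 91 kept their symbol), and for 999 genes with several features the one with the highest mean over all arrays was kept, giving 19938 genes.

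All 9 arrays entered 1 linear model of line in limma 3.58.1 (R 4.3.3; lmFit and eBayes with neither trend nor robust fitting, 6 residual and 2.42 prior degrees of freedom). It gave 3 two-sided comparisons, each adjusted by Benjamini-Hochberg over 19938 genes, and a gene was called at an adjusted p under 0.05. The comparisons share arrays and are not independent. The procedure was tested on simulated data. No filter on low signal was used. Alternatives changed the filter, variance model, scaling, array weights, feature summary, samples, adjustment and minimum fold, and left out arrays.

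The genes and lists were chosen with earlier results of these data known. Named are the 7 factors, every called gene of the other ETS and capicua and COP1 lists, and of other lists up to 4 called genes with the largest difference per comparison, or all where 5 or fewer were called. Other genes in counts of 5 or fewer were named after their values were seen. So were Spry4 for Met1 minus SSM2, Plau for NDL minus SSM2, Mmp3 and Icam1 for NDL minus Met1, and the markers Krt19, Cldn4, Flt1 and Cd3d. For likeness the 3 genes with the highest r were taken. The B cell, myoepithelial and adipocyte lists served as further markers. Correlations with the myoepithelial list are given for Ets2, and with the adipocyte list for Ets2 and Ehf. In the limma test 0 of 5 B cell and 0 of 6 adipocyte markers were called in any comparison. Of 9 myoepithelial markers 4 were higher in NDL than in Met1, 4 were lower in Met1 than in SSM2, and 1 was higher and 3 lower in NDL than in SSM2.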

Additional observations from a re-analysis of the deposited data

How the results depend on the processing

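The 9 arrays, 3 per line, limit the precision, and the signal of all 7 genes was above the 25th percentile of gene means in every line. No filter, variance model, scaling, feature summary or adjustment over the comparisons together moved the count of the 7 genes called in any direction by more than 1.5 times. The replicate numbers do not pair the arrays (correlations of same-numbered deviations from -0.347 to 0.288), and with the replicate block the 7 genes kept the same counts (4 higher and 1 lower in NDL than in Met1), while 3343 of all genes passed there in place of 3814. Testing against a 1.5-fold minimum left 0 higher and 0 lower of the 7 for NDL minus Met1, and 2 higher and 0 lower for NDL minus SSM2. Under it 0 other ETS genes were lower in NDL than in Met1 or SSM2 and 0 higher in Met1 than in SSM2, ERK output genes gave 2 lower (NDL minus Met1), 4 higher (NDL minus SSM2) and 0 lower (Met1 minus SSM2), and all genes 871, 644 and 542. Without NDL replicates 1 and 2 the 7 gave 0 higher and 0 lower against Met1, and 2 higher and 0 lower against SSM2, other ETS genes 2 and 1 lower, ERK output genes 1 lower against Met1 and 4 higher against SSM2, and all genes 1702 and 1190. There the lone NDL array is assumed to vary like the other lines, and Etv1 for NDL minus Met1 turned to 0.36. With array weights 0 of the 7 were lower in NDL than in SSM2, 5 other ETS genes were higher in Met1 than in SSM2, and 4007 genes were called there. With only the NDL and SSM2 arrays the values were 0 of the 7 lower, 1 other ETS gene lower and 1755 genes of the main 3364. Leaving out 1 array gave 1 to 5 of the 7 higher and 0 to 1 lower in NDL than in Met1, and 0 to 2 lower than in SSM2. Other ETS genes ran from 4 to 8 lower (NDL minus Met1), from 1 to 2 higher and 1 to 5 lower (NDL minus SSM2) and from 1 to 5 higher (Met1 minus SSM2). ERK output genes ran from 3 to 5 higher (NDL minus Met1), 0 to 1 lower (NDL minus SSM2) and 1 to 3 lower (Met1 minus SSM2). All genes ran from 2371 to 6631, from 1873 to 7018 and from 1360 to 2754, the highest 2 without NDL replicate 3. The Ets1 difference between Met1 and SSM2, -0.01, turned to 0.0087 with equal medians and 0.13 with array weights, and without 1 array it ran from -0.31 to 0.31, above 0 without Met1 replicate 1 (0.06), Met1 replicate 3 (0.0010) or SSM2 replicate 3 (0.31). None of these was called. Taking the second features of Etv1 and Etv5 was added after seeing the data and changed no call. The cause of these changes was not tested.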
